A study of Mus musculus with 6 samples.

Results

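The Dlx and Msx genes are homeobox genes that pattern the jaw, and 8 of them, Dlx1 to Dlx6, Msx1 and Msx2, were followed in mouse monocytes from mandible and femur. The members were chosen by gene symbol, and all 8 are among the 57010 genes of the count table. RNA came from bone marrow monocytes of C57BL/6 mice 1 year old (C57BL/6J in the methods of the study) and was sequenced in 6 libraries, 3 per bone, named S16, S19 and S23 for mandibular-derived and S13, S15 and S18 for femur-derived monocytes. No treatment is named for the animals, and the groups differ in the bone from which the marrow was flushed. Monocytes were what passed a magnetic column on which antibodies hold back other marrow cells, so that cells the antibodies do not bind remain in the preparation. Mice of both sexes were used in the study, and the sex, the animal and the batch of each library are not given in the labels. Whether libraries came from separate animals is not given either, so the p-values measure the spread between these libraries.

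Dlx and Msx proteins bind DNA through a homeodomain and act as transcription factors. In the embryo, the lower jaw forms from neural crest cells of the first branchial arch, in which Dlx1 and Dlx2 are active along the whole arch and Dlx5 and Dlx6 in its lower part, under endothelin and BMP signals. Loss of Dlx5 and Dlx6 turns the lower jaw toward an upper jaw form, whereas Msx1 and Msx2 act in tooth buds, skull bones and enamel-forming epithelium. Most bones of the face form from these crest cells, and the femur forms from mesoderm, whose position along the body is marked by Hox genes.

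The 6 Dlx genes lie in 3 pairs that face each other, with Dlx1 and Dlx2 on chromosome 2, Dlx3 and Dlx4 on chromosome 11 and Dlx6 and Dlx5 on chromosome 6 of GRCm38. The distance between the genes of a pair was 9426 bases for Dlx1 and Dlx2, 15150 bases for Dlx3 and Dlx4 and 9236 bases for Dlx6 and Dlx5. Msx1 lies at chr5:37820485-37824583 and Msx2 at chr13:53466884-53473074, both on the minus strand and without an overlapping gene. On the plus strand are Dlx1 at chr2:71528113-71533981, Dlx3 at chr11:95120119-95125296 and Dlx6 at chr6:6863334-6868568. The minus strand carries Dlx2 at chr2:71543408-71546754, Dlx4 at chr11:95140447-95146263 and Dlx5 at chr6:6877805-6882085. The homeobox, the coding stretch of 60 codons that makes the homeodomain, is shown for the Dlx genes and Msx2 because the members share this domain. Whether reads could be shared between members was therefore checked. The sequences are the coding strand of GENCODE M21 transcripts, 5′ to 3′, and capitals mark the bases that encode the invariant core of the DNA-recognition helix.
Dlx1: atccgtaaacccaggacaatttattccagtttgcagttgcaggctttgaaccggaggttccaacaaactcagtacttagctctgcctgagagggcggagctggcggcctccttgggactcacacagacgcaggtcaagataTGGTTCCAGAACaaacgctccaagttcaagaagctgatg
Dlx2: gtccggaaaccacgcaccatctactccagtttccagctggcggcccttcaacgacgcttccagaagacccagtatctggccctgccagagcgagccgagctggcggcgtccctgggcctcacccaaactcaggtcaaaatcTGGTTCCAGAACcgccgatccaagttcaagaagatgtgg
Dlx3: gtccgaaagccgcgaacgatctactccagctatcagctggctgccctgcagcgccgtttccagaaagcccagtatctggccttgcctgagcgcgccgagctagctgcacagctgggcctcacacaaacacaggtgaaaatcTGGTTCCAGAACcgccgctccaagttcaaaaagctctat
Dlx4: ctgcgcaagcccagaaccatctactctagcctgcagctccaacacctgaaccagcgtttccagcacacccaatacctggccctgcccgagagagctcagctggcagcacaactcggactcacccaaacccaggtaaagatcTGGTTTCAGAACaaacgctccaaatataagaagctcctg
Dlx5: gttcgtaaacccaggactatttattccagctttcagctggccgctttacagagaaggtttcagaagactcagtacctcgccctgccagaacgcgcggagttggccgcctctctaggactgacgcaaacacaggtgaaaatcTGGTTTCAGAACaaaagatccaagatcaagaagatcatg
Dlx6: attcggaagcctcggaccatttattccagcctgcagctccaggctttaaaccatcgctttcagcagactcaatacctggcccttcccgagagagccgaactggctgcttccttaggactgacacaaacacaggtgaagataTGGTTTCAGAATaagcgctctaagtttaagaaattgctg
Msx2: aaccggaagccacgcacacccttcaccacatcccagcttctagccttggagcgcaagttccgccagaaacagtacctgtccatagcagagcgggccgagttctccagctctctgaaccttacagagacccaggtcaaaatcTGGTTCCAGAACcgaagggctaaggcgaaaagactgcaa
In the Dlx genes the homeobox was split between the exons 2 and 3, and in Msx2 it lay within exon 2. The 15 pairs of Dlx genes were identical at 66.1 to 81.7% of the 180 bases. The closest Dlx pair was Dlx2 and Dlx3, which are not neighbors. Over whole transcripts, the longest run of identical bases between any members was 44 bases (Dlx6 and Msx2), and none of the 28 pairs shared a run of 50 bases, the length of a read. Between Dlx genes the longest run was 23 bases. The run of 44 bases is not in the homeobox, where Dlx6 and Msx2 differ at 78 of the 180 bases. Reads were trimmed, and one of 44 bases or fewer could match both Dlx6 and Msx2.

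Other genes overlap some members on the opposite strand, and whether the counting used the strand is not given in the sources used here. Dlx1 shares 335 exonic bases (6.2% of its exonic length) with the antisense gene Dlx1as, Dlx6 shares 104 (4.4%) with Dlx6os2, and Dlx4 shares 79 (2.4%) with Dlx4os. Reads on these bases cannot be assigned with certainty to either partner. The noncoding gene Dlx6os1, known as Evf2, surrounds Dlx6 without sharing exonic bases with it, and Dlx2, Dlx3, Dlx5, Msx1 and Msx2 share none with another gene.

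The libraries held 15718782 to 25371474 counts on genes. All 10 monocyte markers checked, among them Lyz2, Mpeg1, Ccr2 and Csf1r, had counts in every library and none was called different. Their summed level was 6740 to 13600 CPM (counts relative to library size, scaled by TMM) in the femur and 6200 to 11000 CPM in the mandible. Most of this sum was Lyz2, at 4630 to 10600 CPM in the femur and 4620 to 7820 CPM in the mandible. The libraries stood apart in other ways. In femur S15, 67.2% of 1512 olfactory and vomeronasal receptor genes, which are used in sensory neurons, had at least 1 count, against 0.397 to 4.96% in the other 5 libraries, a comparison chosen after the data were seen. Mandible S23 had 25189 counts of Xist, the RNA of the inactive X chromosome, and none of the Y-linked gene Ddx3y, whereas the other libraries had at most 12 counts of Xist and 840 to 1581 of Ddx3y. Results are therefore given with and without S15 and S23.

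**Figure D1:**
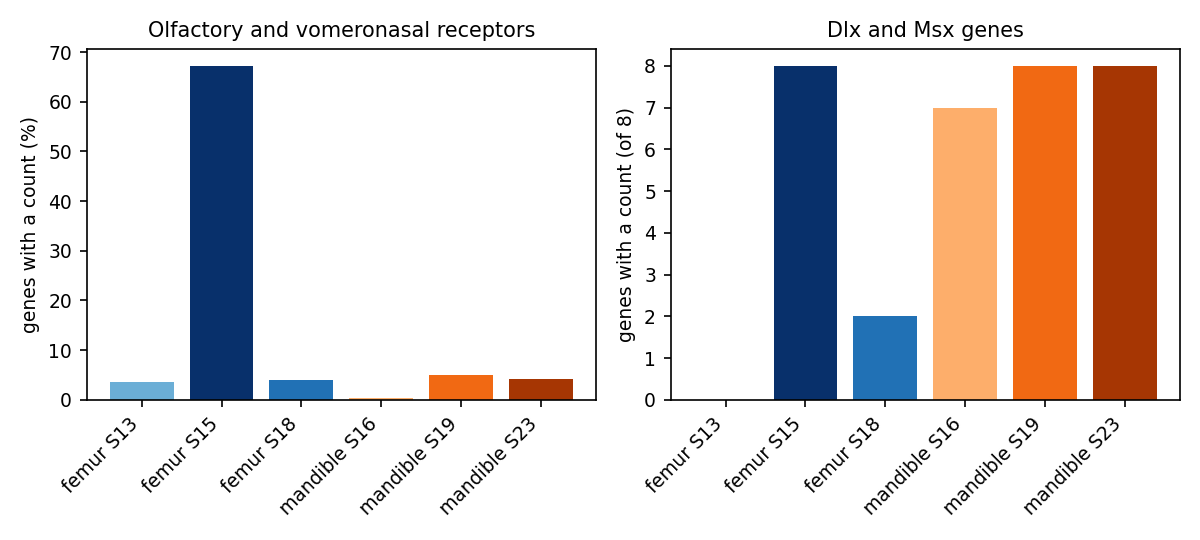
Share of 1512 olfactory and vomeronasal receptor genes with at least 1 count (left, %) and number of the 8 Dlx and Msx genes with at least 1 count (right) in each library. Femur S15 had counts in 67.2% of the receptor genes and in 8 members, femur S13 in 3.51% and 0, and femur S18 in 3.9% and 2.

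In femur-derived monocytes the 8 genes were close to absent from the counts, and in mandibular-derived monocytes all but Dlx4 were counted in every library. Together they had 0 counts in femur S13, 66 in S15 and 12 in S18, against 1031 in mandible S16, 931 in S19 and 1524 in S23. In CPM, the sum was 0, 3.04 and 0.53 in the femur and 51.6, 44.2 and 87.2 in the mandible. A library without a count can still hold a gene at up to 3 counts, or 0.118 to 0.191 CPM before TMM scaling, a limit that covers counting error only. A gene counts as called if it differed at least 2-fold and its p from edgeR's quasi-likelihood test, adjusted over 18114 genes, was under 0.05. Dlx1, Dlx3, Dlx5 and Msx1 were called higher in the mandible, which is 4 of 8 members, against 3.88% of all tested genes called in that direction and 5.18% in either direction. Without the low-count filter 6 of 8 members were called, Dlx2 and Msx2 being added, against 2.41% of 42225 genes. DESeq2, also run without that filter, called 7 members, all but Dlx4, and over all genes it called 1758 in either direction. Dlx2, Dlx6 and Msx2 had an unadjusted p under 0.05 but did not pass the adjustment, and Dlx4 passed neither. For 7 members, all but Dlx4, every mandible library lay above every femur library, an arrangement found in 12.7% of all tested genes. The median log2 fold change of the members was 5.28, or 4.66 with Dlx1 and Msx1 at the lower bounds given below, against -0.038 over all tested genes. The 7 members other than Dlx4 passed the low-count filter through the mandible, where each had at least 38 counts in every library. In the femur, no library had more than 16 counts of a member. Genes counted almost only in the mandible can hardly be called lower there. The shares and the median over all tested genes are therefore not a like-for-like background. Since the labels describe bulk samples, fewer cells of a type and less RNA per cell cannot be told apart.

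**Figure D2:**
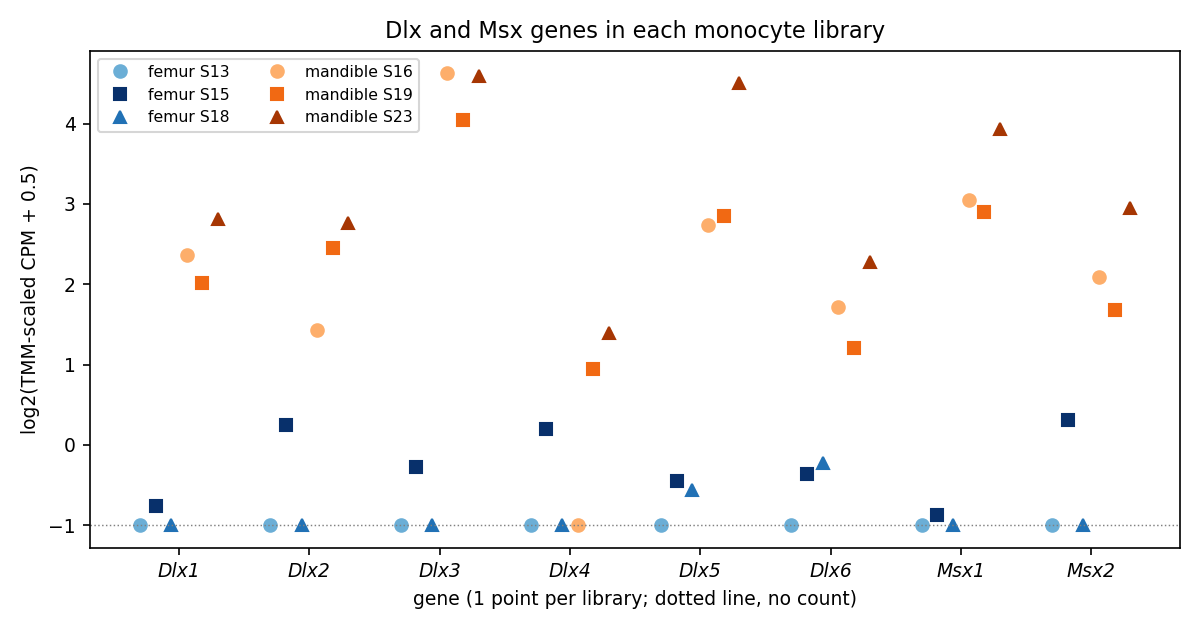
TMM-scaled CPM of the 8 genes on a log2 scale after adding 0.5, with 1 point per library and the dotted line at no count. Mandible libraries lie above all femur libraries for every gene but Dlx4, which had no count in mandible S16.

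Counts in the femur came mainly from S15. The 6 genes Dlx1, Dlx2, Dlx3, Dlx4, Msx1 and Msx2 had no count in S13 and S18, and Dlx5 and Dlx6 had 4 and 8 counts in S18. In S15 the members had 1 to 16 counts, or 0.0149 to 0.242 RPKM (CPM per kilobase of exon). The receptor genes of S15 had a mean of 0.0661 RPKM and a 95th percentile of 0.239 RPKM. Dlx1 and Msx1, at 0.0171 and 0.0149 RPKM, were below that mean, and the other members, at 0.102 to 0.242 RPKM, were above it. At or below the percentile were 7 of the 8 members, with Dlx2 at 0.242, and by construction about 95% of the receptor genes. What gave this library its counts of sensory receptor genes, and its part in the femur levels of the members, was not tested. Without S15, 6 members were called, Dlx2 and Msx2 being added, and without S23 the called members were Dlx3, Dlx5 and Msx1. Calls over all genes moved too, from 938 with all libraries to 1565 without S15 and 551 without S23.

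Dlx5 and Dlx6 give the lower jaw its identity, and Dlx5 also acts in osteoblasts. Dlx5 had 124, 142 and 390 counts in mandible S16, S19 and S23 and 0, 5 and 4 in femur S13, S15 and S18. The groups did not overlap, with 6.2, 6.74 and 22.3 CPM in the mandible and at most 0.23 CPM in the femur, and S23 was 3.6 times as high as S16. Its mandible mean was 11.8 ± 9.15 CPM and its femur mean 0.136 ± 0.121 CPM (SD, n = 3 per bone), which edgeR fitted as 6.33 ± 1.02 (SE) on the log2 scale, adjusted p = 0.0041. The call held without S15 (log2 fold change 6.83) and without S23 (5.43, adjusted p = 0.043 from edgeR), but not under limma-voom (adjusted p = 0.11). Dlx6 had 56, 38 and 76 counts in S16, S19 and S23, with 0, 6 and 8 in S13, S15 and S18. The lowest mandible library, at 1.8 CPM, was 5.1 times the highest femur library, at 0.353 CPM. Dlx6 was not called (edgeR log2 estimate 3.77 ± 1.44 SE, adjusted p = 0.2), nor without S15 (3.96, adjusted p = 0.22), and DESeq2 called it (adjusted p = 0.0097).

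Dlx1 and Dlx2 act along the whole arch and in the forebrain. Dlx1 had 93, 75 and 114 counts in mandible S16, S19 and S23, and 0, 2 and 0 in the femur libraries. These are 4.65, 3.56 and 6.52 CPM in the mandible, where S19 was the lowest, and no femur library reached 0.1 CPM. Because every femur library had at most 3 counts, the fold was taken against 3 counts per library, and Dlx1 was at least 33.8-fold higher in the mandible. The fitted edgeR log2 estimate of 7.02 ± 1.4 (SE), with an adjusted p of 0.013, rests on almost no femur counts. Dlx1 was not called without femur S13 (adjusted p = 0.057), femur S18 (0.057), mandible S19 (0.061) or mandible S23 (0.062). Dlx2 had 44, 105 and 110 counts in S16, S19 and S23, and its femur counts were 15 in S15 and 0 in S13 and S18. Mandible libraries were at 2.2 to 6.29 CPM, the lowest of them 3.19 times femur S15. Its log2 fold change of 4.24 (standard error 1.56) did not pass the test (adjusted p = 0.18 from edgeR). Without S15 Dlx2 was called (adjusted p = 0.012), at least 30.0-fold higher than 3 counts in femur S13 and S18.

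Dlx3 acts in teeth, hair and bone and is mutated in a human disorder of hair, teeth and bone. It was the most abundant member in CPM, with 484, 337 and 412 counts in mandible S16, S19 and S23 and 0, 7 and 0 in femur S13, S15 and S18. At 24.2, 16 and 23.6 CPM the mandible libraries differed among themselves by 1.51 times, the least of the members, and the lowest was 49.6 times femur S15. The mean was 21.3 ± 4.57 CPM (SD, n = 3) in the mandible and 0.108 ± 0.186 CPM (SD, n = 3) in the femur, which edgeR fitted as 7.51 ± 0.97 (SE) on the log2 scale, adjusted p = 0.00099. The call held without S15 (adjusted p = 0.00013) and without S23 (adjusted p = 0.0055), and against 3 counts in femur S13 and S18 Dlx3 was at least 142-fold higher. Dlx4, its neighbor, was the only member whose groups overlapped. It had 0, 30 and 37 counts in mandible S16, S19 and S23, and 14 in femur S15. Mandible S16, like femur S13 and S18, had no count. Dlx4 was not called (edgeR log2 estimate 2.41 ± 2.2 SE, adjusted p = 0.7), nor was it without S15 (adjusted p = 0.24).

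Msx1 is needed for tooth buds and for the palate, and Msx2 for skull bones and enamel. Msx1 had 155, 147 and 258 counts in mandible S16, S19 and S23 and 1 count in all femur libraries together, in S15. At 7.76, 6.98 and 14.8 CPM, S23 was 2.12 times S19, and the groups did not overlap. Against 3 counts per femur library Msx1 was at least 67.6-fold higher, and the fitted log2 fold change was 8.8 (standard error 1.08, adjusted p = 0.00073 from edgeR), which rests on that 1 femur count. It was called without S15 (adjusted p = 0.0012) and without S23 (adjusted p = 0.0066). Msx2 had 75, 57 and 127 counts in S16, S19 and S23, and 16 counts in femur S15, its only femur library with a count. The mandible libraries were at 3.75, 2.71 and 7.26 CPM and femur S15 at 0.737 CPM, so that the lowest mandible library was 3.67 times S15. Its log2 fold change of 4.17 (standard error 1.55) did not pass the test (adjusted p = 0.18 from edgeR), and without S15 Msx2 was called (adjusted p = 0.012), at least 30.6-fold higher than 3 counts in S13 and S18. For each of the 7 members whose groups did not overlap, the exact two-sided permutation test gave p = 0.1, the smallest that 3 against 3 libraries allow, and for Dlx4 it gave p = 0.4.

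**Figure D3:**
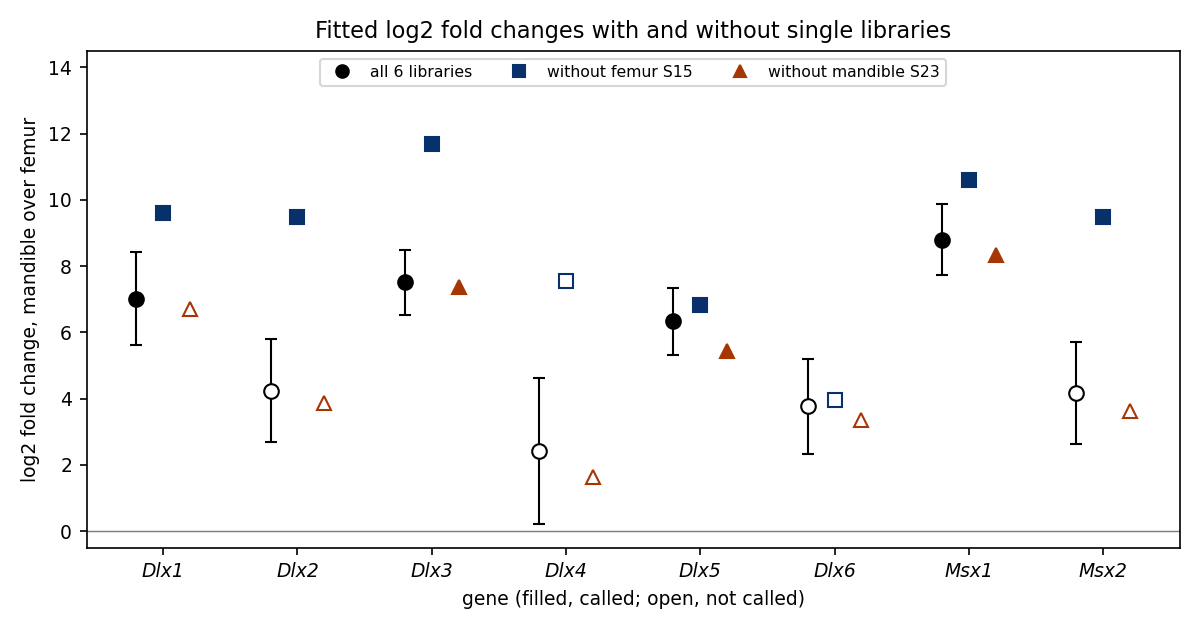
Fitted log2 fold change of each gene, mandible over femur, with all 6 libraries (circles, bars show the standard error), without femur S15 (squares) and without mandible S23 (triangles), where filled symbols were called. Dlx3, Dlx5 and Msx1 were called in all of these fits, Dlx2 and Msx2 only without S15, and Dlx4 and Dlx6 in none of them.

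Per exonic length, the order of the levels in the mandible was Dlx3, Dlx5, Msx1, Dlx2, Msx2, Dlx6, Dlx1 and Dlx4. Dlx3 was at 8.16 ± 1.75 RPKM (SD, n = 3), Dlx5 at 5.19 ± 4.04 RPKM and Msx1 at 3.17 ± 1.38 RPKM. The range of Dlx5 overlapped those of Dlx3 and Msx1, which did not overlap each other, and Dlx5 exceeded Dlx3 in S23, at 9.86 against 9.04 RPKM. The range of Msx1, from 2.25 to 4.76 RPKM, lay above that of Dlx2, from 0.771 to 2.2 RPKM. Dlx2, Msx2, Dlx6 and Dlx1, at means of 1.57, 1.4, 1.26 and 0.91 RPKM, overlapped each with the next, and Dlx4, at 0.361 ± 0.33 RPKM (SD, n = 3), lay below the range of Dlx1. Dlx3 took 50.2, 38.9 and 28.5% of the summed RPKM of the members in S16, S19 and S23, and Dlx5 took 14.8, 18.9 and 31%. In the femur no order is given, since S13 had no count and only Dlx5 and Dlx6 had any in S18.

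Ratios were taken within the facing Dlx pairs and between the Msx genes. In RPKM, Dlx3 was 14.1 and 14 times Dlx4 in S19 and S23, and in S16 Dlx4 had no count. Dlx5 was 2.32, 3.92 and 5.39 times Dlx6 in S16, S19 and S23, and so the higher of the pair in every mandible library. Msx1 was 2.19, 2.73 and 2.15 times Msx2 in the same libraries. Dlx1 and Dlx2 had no fixed order, with Dlx1 at 1.12 times Dlx2 in S16 and at 0.378 and 0.548 times in S19 and S23. No noncoding gene at these loci that was tested was called. Dlx6os1 had 33, 37 and 76 counts in mandible S16, S19 and S23 and 0, 32 and 22 in femur S13, S15 and S18, and was not called (edgeR log2 estimate 1.65, adjusted p = 0.68). Dlx1as had 42, 6 and 42 counts in the mandible and 0, 20 and 1 in the femur and did not pass the test either (edgeR log2 estimate 2.28, adjusted p = 0.64). Dlx4os, with 0, 74 and 45 counts in mandible S16, S19 and S23 and a mandible mean of 1.22 RPKM against 0.361 for Dlx4, was without a count in the same mandible library as Dlx4, and Dlx6os2, with counts in S23 and femur S15 alone, fell under the low-count filter as Dlx4os did. Msx3, the paralog of the dorsal spinal cord, had no count in any library.

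Some markers of other cell types were also higher in the mandible libraries. All 10 markers of mesenchymal and bone-forming cells were called higher in the mandible, with Col1a2, Col3a1, Sparc and Postn the most abundant, and their summed level was 87.6 to 128 CPM in the femur and 4560 to 8760 CPM in the mandible. Among 12 markers of enamel-forming and other epithelial cells, 11 were tested and 8 were called higher, with Amelx, Ambn, Enam and Mmp20 the most abundant, and their sum was 10.1 to 12 CPM in the femur and 5840 to 11500 CPM in the mandible. Odam was the only marker of these lists without a count in the femur. Of 6 endothelial markers, 5 were tested and none was called, with sums of 49.1 to 66.6 CPM in the femur and 37.7 to 55.6 CPM in the mandible. Mandible S23 had the highest sums of the mesenchymal and the enamel lists, and 7 of the 8 members were highest there, Dlx3 being highest in S16. For 1000 CPM of mesenchymal markers, the members had 11.3, 6.65 and 9.95 CPM in mandible S16, S19 and S23, and 0, 26.7 and 6.05 CPM in femur S13, S15 and S18. For 1000 CPM of enamel and epithelial markers, they had 8.84, 5.95 and 7.58 CPM in the mandible and 0, 301 and 44.2 CPM in the femur. The femur sum of this list lay mostly in Cdh1 (9.78, 4.52 and 8.04 CPM in S13, S15 and S18) and Epcam (1.05, 1.24 and 3.53 CPM). Neither was called, with log2 estimates of 0.65 for Cdh1 and -0.48 for Epcam. The mandible sum lay mostly in Amelx, Ambn and Enam, so the ratios of the bones rest on different genes. The femur ratios rest on 66 counts of the members in S15 and 12 in S18. Megakaryocyte, neutrophil and erythroid lists of 6 markers each had 5, 1 and 3 genes called lower in the mandible. The B cell and T or NK cell lists had none called, and Dspp was the called gene among 4 listed markers of dentin-forming cells (odontoblasts). The part of mesenchymal, epithelial and these other cells in the levels of the Dlx and Msx genes was not tested.

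**Figure D4:**
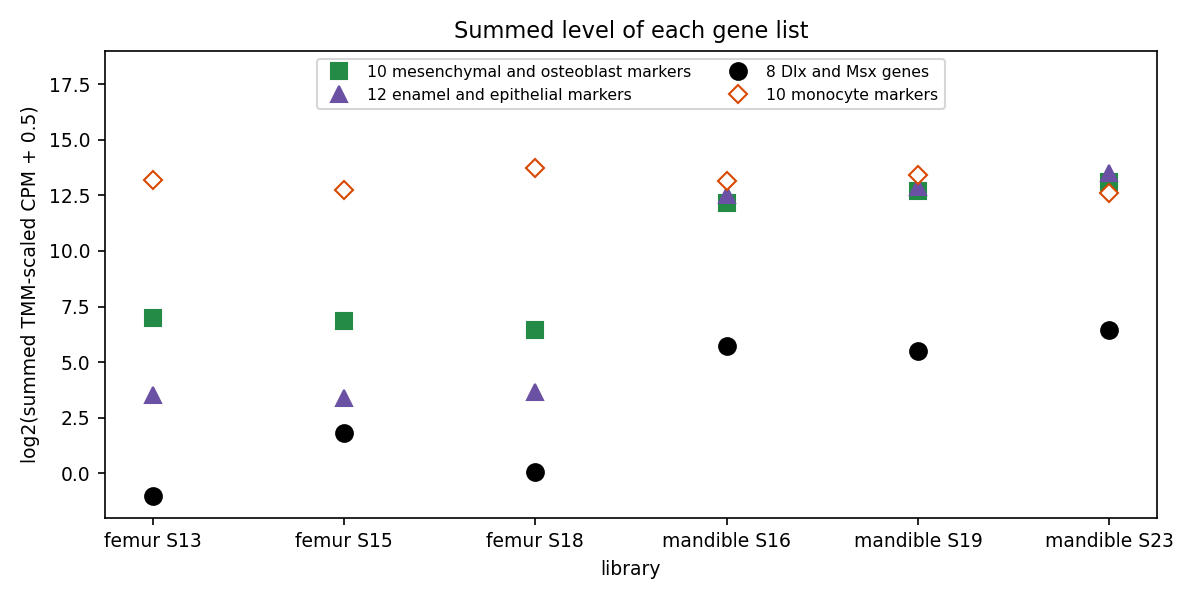
Summed TMM-scaled CPM of the Dlx and Msx genes and of the marker lists in each library, on a log2 scale after adding 0.5. Monocyte markers, whose sum is mostly Lyz2, stay between 6200 and 13600 CPM in all libraries. The sums of the other 3 lists are higher in each mandible library than in each femur library.

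Genes that act before, beside and after the Dlx and Msx factors were counted from lists. Of 21 ligands, receptors and transducers upstream of them, 18 were tested, 5 were called higher and none lower, with a median log2 fold change of 1.38. The called genes were Fgfr1, Bmp7, Bmp4, Jag1 and Smo. Fgfr1, a receptor of fibroblast growth factors, was at 87.3 ± 48.2 CPM (SD, n = 3) in the mandible and 2.9 ± 0.938 CPM in the femur, which is 4.9 on the log2 scale in edgeR, adjusted p = 0.00024. Bmp4, a ligand that turns on Msx genes in tooth mesenchyme, had 268, 213 and 164 counts in S16, S19 and S23 and 59, 46 and 55 in S13, S15 and S18, which is 2.07 on the log2 scale in edgeR, adjusted p = 0.045. The call of Bmp4 lies near the threshold, and the number of called upstream genes was 1 to 5 when 1 library was left out. Edn1, the endothelin ligand of the lower jaw program, had at most 13 counts in any library and fell under the filter, and its receptor Ednra was not called (edgeR log2 estimate 1.44, adjusted p = 0.37). The most abundant genes of this list, Notch2, Mef2c, Ece1 and Gnaq, were not called, with log2 estimates of 0.83, 0.72, 0.98 and 0.13.

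Of 13 transcription factors listed for the distal part of the arch, 9 were tested and 5 were called higher, Hand2, Foxf1, Foxf2, Alx1 and Alx4, with a median log2 fold change of 4.1. Not all genes of this list are confined to the lower jaw. Hand2, which acts below Dlx5 and Dlx6 in the lower jaw, had 553, 433 and 472 counts in mandible S16, S19 and S23 and 0, 9 and 0 in femur S13, S15 and S18 (edgeR log2 estimate 7.4 ± 0.96 SE, adjusted p = 0.001). Foxf1 had 61, 151 and 208 counts in the mandible and 2 in the femur, all in S15. At most 3 counts in each femur library put it, like Dlx1 and Msx1, among the genes whose fitted fold is no bound. Under limma-voom, 1 factor of this list was called, and 3 to 6 were called when 1 library was left out, with 3 without mandible S19 or S23 and 6 without femur S15. Of 12 factors of the proximal, upper jaw part or of the whole arch, 6 were tested and 2 were called, Prrx1 among them, with a median of 3.84, and 0 to 3 were called when 1 library was left out. Prrx1, a marker of limb and head mesenchyme, had 428, 511 and 691 counts in the mandible and 0, 46 and 13 in the femur (edgeR log2 estimate 4.95, adjusted p = 0.01). The difference between the distal and the proximal list was not tested.

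Among 11 transcription factors of teeth, 9 were tested, 3 were called higher and none lower, and the median was 3.35, with 2 to 5 called when 1 library was left out. Sp6, a factor of enamel-forming cells, rose from 0.465 ± 0.378 to 43.0 ± 12.7 CPM (SD over 3 libraries per bone), which is 6.51 on the log2 scale in edgeR, adjusted p = 0.00014. Lef1, a WNT effector, was also called, at 2.39 on the log2 scale (edgeR, adjusted p = 0.028). Trp63, the master factor of epithelia, had 145, 209 and 277 counts in the mandible and 0, 42 and 7 in the femur, and was not called (adjusted p = 0.081 from edgeR).

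Bone genes on which Dlx or Msx factors act were called higher in 9 of 10 cases, all but Phex, with a median of 3.88, and 6 to 9 were called when 1 library was left out. Runx2, the osteoblast master factor, was already counted in the femur at 36.1 ± 6.01 CPM (SD, n = 3) and reached 87.4 ± 19.5 CPM in the mandible, which is 1.27 on the log2 scale in edgeR, adjusted p = 0.018. Runx2 had 580, 723 and 974 counts in femur S13, S15 and S18. The members had no count in S13 and 1 to 16 counts each in S15, and in S18 only Dlx5 and Dlx6 were counted, at 4 and 8. A link between the members and Runx2 in these libraries was not tested. Col1a1, the collagen of bone matrix, had a log2 fold change of 7.49, and osteocalcin genes Bglap and Bglap2 of 6.05 and 5.88 (adjusted p 1.6e-05, 0.0035 and 0.016 from edgeR). Of 10 proteins that bind Dlx or Msx factors, 9 were tested and 1 was called, Maged1, also known as Dlxin-1 for its binding to Dlx proteins. Maged1 was at 76.0 ± 35.6 CPM in the mandible and 4.72 ± 2.11 CPM in the femur (SD, n = 3), which is 4.01 on the log2 scale in edgeR, adjusted p = 0.00047. The more widely used partners Smad4, Tle4 and Pias1 had log2 fold changes of 0.36, 0.08 and 0.25, and none was called.

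Few limb position genes passed the low-count filter. Of 14 Hox, Tbx4 and Shox2 genes, 2 passed, Hoxa9 and Shox2, and neither was called, the log2 estimates being -1.21 and 2.13 (edgeR, adjusted p 0.77 and 0.31). Hoxa9, which is also used in blood progenitors, had 28, 38 and 18 counts in femur S13, S15 and S18 and 16, 14 and 5 in mandible S16, S19 and S23. Hoxa10 had 2, 21 and 16 counts in the femur and 0, 5 and 0 in the mandible.

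**Figure D5:**
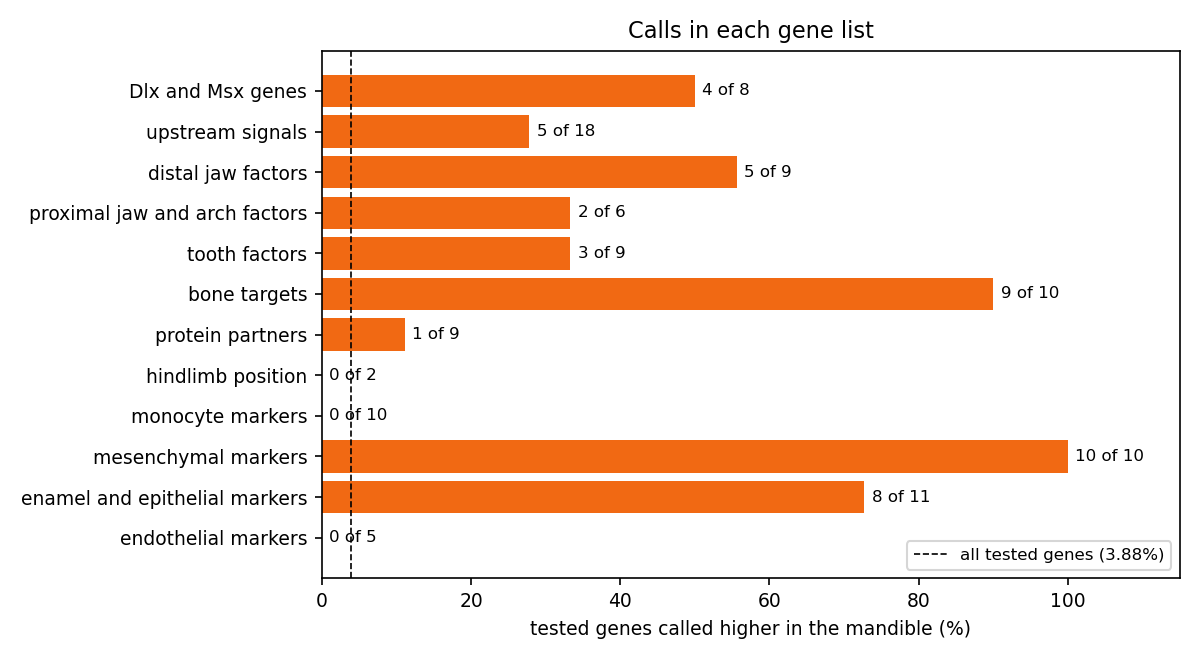
Share of the tested genes of each list that were called higher in the mandible (edgeR, adjusted p under 0.05 and at least 2-fold), with the number called and tested beside each bar and the share of all tested genes, 3.88%, as a dashed line. The Dlx and Msx genes had 4 of 8, bone targets 9 of 10, and the limb position (marked hindlimb position), monocyte and endothelial lists none.

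The genes whose levels over the 6 libraries were most like the summed members were Col17a1, Prrx1, Mcc, Naalad2 and Sobp, with Pearson correlations of 0.997 to 0.999 on the log2 scale. These are descriptions over 6 libraries that share the split between the bones, and 1244 of 18106 genes compared had a correlation above 0.9. Col17a1, a collagen of epithelial attachment, was at 35.1, 29.5 and 55.3 CPM in mandible S16, S19 and S23 and at 0, 2.53 and 0.751 CPM in femur S13, S15 and S18, the same order of libraries as the members.

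RefSeq promoter sequences of GRCm38.p6 were at hand for 4 members, Dlx1, Dlx2, Msx1 and Msx2, and the 250 bases before the start of Msx1, a called member, and of Dlx2, a member not called, are printed because they lie outside annotated exons of the genes. They stand 5′ to 3′ on the minus strand, at chr5:37824586-37824835 and chr2:71546755-71547004, with the CCAAT box (CCAAT, or ATTGG on the other strand) in capitals.
Msx1: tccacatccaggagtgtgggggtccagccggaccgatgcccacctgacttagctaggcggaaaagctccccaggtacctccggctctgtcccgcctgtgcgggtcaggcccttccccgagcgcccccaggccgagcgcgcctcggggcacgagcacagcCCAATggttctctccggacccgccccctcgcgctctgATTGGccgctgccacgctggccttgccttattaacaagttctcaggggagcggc
Dlx2: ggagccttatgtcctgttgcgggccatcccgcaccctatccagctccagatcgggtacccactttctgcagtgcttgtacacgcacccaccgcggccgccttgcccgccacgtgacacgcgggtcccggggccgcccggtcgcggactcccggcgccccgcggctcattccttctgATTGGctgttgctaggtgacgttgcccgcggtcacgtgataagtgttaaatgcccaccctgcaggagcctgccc
Both windows are rich in G and C, at 68.0 and 66.4%, against a median of 52.4% over 32851 promoter windows of the same length. They hold 20 and 24 CpG, against a median of 6. A CCAAT box was found on either strand in 33.8% of all windows, at 2 places in Msx1 and at 1 in Dlx2. The homeodomain motifs TAATTA and TAATTG and the TATA box TATAAA, searched on both strands, were not in these windows and are in 4.84, 7.17 and 12.4% of all windows. The match of letters is a description and does not show binding.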

How the data were processed

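RNA of monocytes was measured in 6 libraries. The authors trimmed paired reads, mapped them with HISAT2 2.1.0 to a genome named GRCm38 and counted them per gene with featureCounts, and what they deposited are unnormalized whole counts. The intervals in the count table lay inside the GENCODE M21 gene for Dlx5 and Dlx6 alone, so M21 supplied the GRCm38 positions, matched on Ensembl identifiers, and the lengths of all 8 members were the same in both. The test was the quasi-likelihood test of edgeR 4.0.16 under R 4.3.3, after filterByExpr (at least 10 counts, total at least 15) and TMM scaling, prior count 0.125, no covariates, with Benjamini-Hochberg adjustment over 18114 genes. Standard errors were taken from the F statistic. CPM were scaled by TMM, and permutation tests used log2 (CPM + 0.5). A floor of 3 counts per library was used for genes with at most 3 counts in each femur library. With femur S15 set aside, it was also used for Dlx2, Dlx3 and Msx2, which had no count in S13 and S18. These folds compare the mandible mean with the floor and are not bounds for single mandible libraries. Other tools tried were limma-voom (limma 3.58.1), DESeq2 1.42.0 on every gene with a count, and the exact test in edgeR. Beside them were other scalings, filters, prior count and thresholds, a loess length correction (span 0.4) and each library left out in turn. The members and lists were chosen with earlier results of these data known. Genes named were the members, their overlapping genes and Msx3, in each list up to 4 most abundant and up to 4 called with the largest change, and 5 genes most like the members, with Xist and Ddx3y. Library depth was 15718782 to 25371474 counts. The receptor genes, Smo, Edn1, Ednra, Odam, Phex, Cdh1 and Epcam were named after their values were seen. Some genes and sequences that this rule selects are not reported here. The test was tried on simulated data before use.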

Additional observations from a re-analysis of the deposited data

How the results depend on the processing

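No paired analysis was possible because the groups share no replicate number. The log2 fold change of every member stayed above 0 in all 143 values of single members under 18 alternatives, from 1.64 to 11.7, with 6 losing a call and 7 gaining one. The alternatives without a fold change minimum and at an adjusted p under 0.01 changed only the threshold. Their log2 fold changes are those of the design used and could not move. Dlx3 and Msx1 were called under every alternative that tested them. The number of members called was 7 under DESeq2 and 6 under edgeR without a low-count filter. DESeq2 was also run on every gene with a count, so that tool and filter changed together. The number was 0 when 10 counts were required in every library, since that filter removed all 8. Leaving out 1 library gave 3 to 6 called members, or 4 to 6 without a low-count filter. Calls over all genes, 938 in the design used, numbered 1758 under DESeq2, 1450 under edgeR's exact test, 1590 with every gene with a count and 445 at an adjusted p under 0.01, and 434 to 1565 with 1 library left out (the lowest without mandible S19 and the highest without femur S15). Calls in the 7 pathway lists together, 25 of 63 tested genes, numbered 16 with 10 counts in every library, 15 at an adjusted p under 0.01 and 13 to 29 with 1 library left out. The cause of these changes was not tested, except that a filter removes genes by its construction. At this depth, a member without a count in a library may still be present at up to 3 counts.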

Other observations

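Femur S15 had counts on 40494 genes, 22095 of them at 1 to 20 counts, against 17481 to 23513 genes with a count in the other libraries. Low counts in S15 alone are therefore not particular to the listed genes, and the share of all genes with this pattern is not given. Of the 91 genes on the 7 pathway lists, 28 had no count in femur S13 and S18 but at least 1 in femur S15. Of these, 7 were counted in femur S15 alone of all 6 libraries. They were Hand1 (8 counts) and Nkx3-2 (20 counts) of the distal arch list, and the limb genes Hoxc10 (12), Hoxd11 (5), Hoxd10 (2), Hoxd12 (2) and Hoxa13 (1). They were chosen after their values were seen. Hand1 and Nkx3-2 thus had no count in any mandible library, where Hand2 had 433 to 553.

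The 4 genes listed as markers of dentin-forming cells (odontoblasts) were also counted in the mandible libraries. Dspp, the main protein of dentin, had 477, 573 and 101 counts in mandible S16, S19 and S23 and 0, 15 and 0 in femur S13, S15 and S18, which edgeR fitted as 6.3 ± 1.21 (SE) on the log2 scale, adjusted p = 0.011. Dspp was lowest in S23, the library in which 7 of the 8 Dlx and Msx genes were highest. The list had no common order, since Nes was also lowest in S23, at 10.1 CPM, but Sema3e in S19, at 6.36 CPM. Ifitm5 was highest in S23, at 2.23 CPM, overlapped the femur and was not called (edgeR log2 estimate 1.37, adjusted p = 0.35).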
